A study of Mus musculus with 6 samples.

Results

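The 10 genes described here encode SREBP-1 (Srebf1), a transcription factor that switches on fat synthesis, and enzymes that carry carbon from citrate to stored triglyceride (Acly, Acaca, Fasn, Elovl6, Scd1, Scd2, Lpin1, Dgat1 and Dgat2). They were chosen by name, with earlier results of these data known, and matched 10 of the 52550 mouse genes of the deposited table. All 10 had enough counts to enter the comparison, which covered 13396 genes. RNA came from quadriceps of male mice aged 13 weeks, 3 FLExDUX4 and 3 WT littermates, according to the sample labels and the series' design text, whereas the paper's methods describe triceps of younger mice. FLExDUX4 mice are hemizygous for a human DUX4 transgene that lies inverted between lox sites in the Rosa26 locus. The mice carried no Cre recombinase that would turn the transgene, and the low DUX4 expression of this line is leaky. Reads of the transgene were not analysed here, so the genotype labels were not checked against it.

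Cells make fatty acids from citrate that leaves the mitochondria. ATP citrate lyase releases acetyl-CoA, acetyl-CoA carboxylase turns it into malonyl-CoA, and fatty acid synthase assembles palmitate, which elongases lengthen and stearoyl-CoA desaturases make monounsaturated. Lipin 1 and the diacylglycerol acyltransferases perform the closing steps of triglyceride assembly, and SREBP-1, activated by insulin, raises the transcription of most of these enzymes. Liver and fat are the classical sites of this synthesis. In skeletal muscle most fatty acids are taken up from blood, and malonyl-CoA serves largely to restrain their oxidation.

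The libraries were made with QuantSeq, which reads the 3′ end of polyadenylated RNA, so that each transcript contributes about 1 read whatever its length and levels of different genes can be set side by side without a length correction. The values are the authors' counts summed over the mice of a genotype, 13110125 counts on genes for FLExDUX4 and 18367364 for WT. Each genotype therefore gives 1 value per gene. No test across mice was run, because the columns of values per sample match no label. Intervals cover counting error only, and a single mouse could set any of the ratios below. Levels are CPM, counts scaled by TMM to a common library size, with a 95% Poisson interval, and ratios are log2 ratios of FLExDUX4 to WT with a 95% Clopper-Pearson interval. Muscle transcripts were abundant in both totals: all 10 skeletal muscle markers were present, and together they gave 136420 CPM in FLExDUX4 and 138218 CPM in WT. Of 5 liver markers, 4 were at or under the floor of 3 counts in both totals, and Alb had 2 and 4 counts. Because these are bulk samples, fewer cells of a type and less RNA per cell cannot be told apart.

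Promoter sequences are shown for the regulator Srebf1 and for Fasn and Acly, classical SREBP targets, as the places where such motifs are looked for. They are RefSeq sequences on GRCm38.p6, from 250 bases before to 50 bases after an annotated transcript start, and 6 of the 10 genes had an entry, with 8 promoters. Srebf1 has 3 annotated starts, and its most downstream start is shown. All of these promoters lie on the minus strand and are written 5′ to 3′. Capitals mark the motifs CCAAT and GGGCGG on either strand, which read ATTGG and CCGCCC in reverse.
Fasn, chr11:120824498-120824797: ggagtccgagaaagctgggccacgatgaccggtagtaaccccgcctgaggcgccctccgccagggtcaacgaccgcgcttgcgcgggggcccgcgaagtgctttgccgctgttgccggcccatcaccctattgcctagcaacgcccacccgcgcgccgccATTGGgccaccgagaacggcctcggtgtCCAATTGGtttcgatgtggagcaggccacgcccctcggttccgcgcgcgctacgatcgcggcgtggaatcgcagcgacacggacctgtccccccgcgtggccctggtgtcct
Srebf1, chr11:60210422-60210721: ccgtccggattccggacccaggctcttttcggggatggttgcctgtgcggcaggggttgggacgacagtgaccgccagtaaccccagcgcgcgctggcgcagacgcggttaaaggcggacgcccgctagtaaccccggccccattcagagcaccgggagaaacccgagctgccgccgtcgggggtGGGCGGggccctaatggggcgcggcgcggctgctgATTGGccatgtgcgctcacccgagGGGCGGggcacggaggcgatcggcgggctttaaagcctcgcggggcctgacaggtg
Acly, chr11:100527951-100528250: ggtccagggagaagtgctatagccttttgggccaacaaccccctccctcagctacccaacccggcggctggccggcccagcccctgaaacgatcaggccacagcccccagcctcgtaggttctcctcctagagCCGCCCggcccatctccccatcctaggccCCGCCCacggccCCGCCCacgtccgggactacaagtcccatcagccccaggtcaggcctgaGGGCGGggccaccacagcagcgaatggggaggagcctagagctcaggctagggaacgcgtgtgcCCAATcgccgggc

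The CCAAT box is the letters that NF-Y binds, and the GC box GGGCGG is bound by Sp1. The Fasn promoter held 3 CCAAT boxes, at -90, -62 and -59 from the transcript start, of which the pair nearest the start shares bases, and it held no GC box. The Srebf1 promoter shown held 1 CCAAT box at -30 and 2 GC boxes at -65 and -6. Acly had 4 GC boxes and 1 CCAAT box. Of the other starts of Srebf1, one held 3 GC boxes and no CCAAT box and the other 1 CCAAT box and no GC box. The promoters of Acaca, Elovl6 and Lpin1 held neither motif. Of all 32851 promoters of this length, 37.4% held at least 1 CCAAT box and 35.7% at least 1 GC box, so either motif alone is common. The sterol regulatory element TCACCCCAC, the letters of the classical SREBP site, and the E-box CACGTG were found in none of the 8 promoters. They occurred in 0.551% and 7.15% of all promoters. A match describes letters and says nothing of binding, and the absence of these letters says nothing of other SREBP sites.

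In both totals Lpin1 was the most abundant of the 10 genes, followed by Scd1 and Srebf1, and Elovl6 was the least. Lpin1 took 62.4% (95% Clopper-Pearson interval 61.3 to 63.5) of the counts of the 10 genes in FLExDUX4 and 56.4% (55.4 to 57.3) in WT. It stood at place 195 among the 13396 genes in FLExDUX4 and at place 246 in WT. Scd1 took 12.7% (11.9 to 13.4) in FLExDUX4 and 16.3% (15.6 to 17.0) in WT. Below Srebf1, neighbours in the order had intervals that mostly overlapped. In the FLExDUX4 total these were Fasn and Dgat2, and then Scd2, Acaca, Acly and Dgat1. In the WT total they were Dgat2, Fasn and Scd2, and then Acly, Acaca and Dgat1. Fasn and Scd2, which had overlapping intervals in WT, were apart in FLExDUX4.

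**Figure D1:**
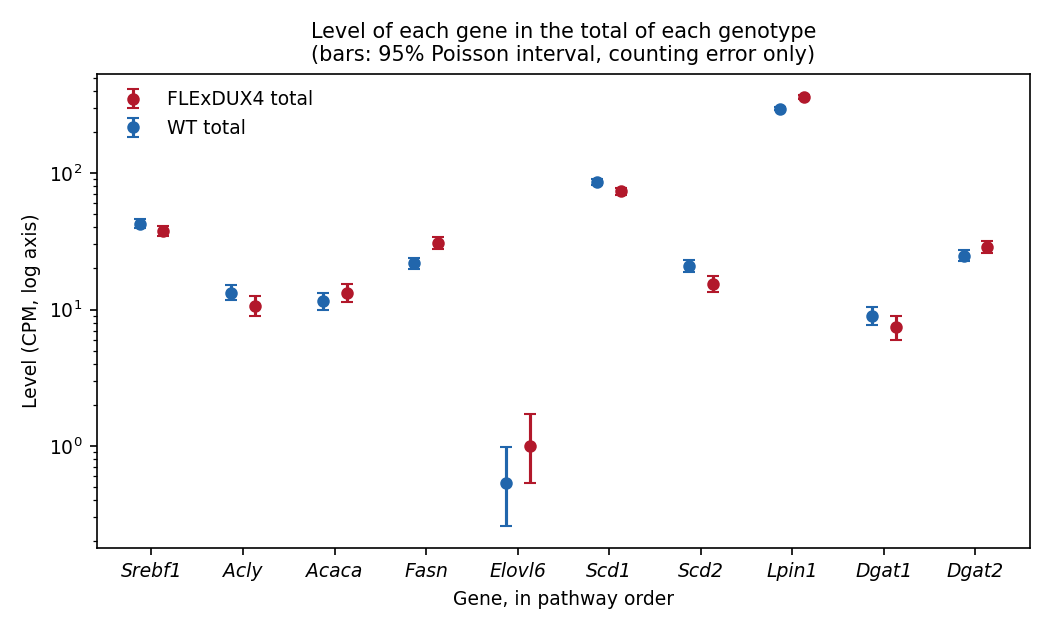
Level of each gene in CPM on a log axis, in the FLExDUX4 total (red) and the WT total (blue), with bars for the 95% Poisson interval, which covers counting error only. Lpin1 lies highest at 362 and 297 CPM and Elovl6 lowest, with 13 and 10 counts, and the genes differ far more from each other than between genotypes.

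The comparison of genotypes asks how the lipogenic genes stood in muscle that carries the transgene. They did not share 1 direction. By the totals 5 genes were higher in FLExDUX4 (Acaca, Fasn, Elovl6, Lpin1 and Dgat2) and 5 were lower (Srebf1, Acly, Scd1, Scd2 and Dgat1), a split that became 3 higher and 7 lower when scaled to added spike-in RNAs. Their median log2 ratio was 0.01, against 0.00 for the 6321 genes in the range of 263 to 10219 counts that holds all of the genes but Elovl6. The counting interval lay above 0 for 3 of the 10 genes, against 20.5% of all genes compared, and below 0 for 4 of the 10, against 20.6%. Within the count range given above, 22.2% of genes had an interval above 0 and 21.2% had one below 0. With spike-in scaling the interval lay above 0 for Fasn and below 0 for Srebf1, Acly, Scd1, Scd2 and Dgat1. On that scale 25.2% of all genes compared were higher. A ratio of at least 0.5, which is 1.41-fold, was reached upward by 1 of the 10 genes, Elovl6, and downward by 0. Of all genes compared 15.7% were past that size in each direction, and of those in the count range 4.83% were past it upward and 3.80% downward. The sum of the 10 genes was 580 CPM (interval 567 to 594) in FLExDUX4 and 528 CPM (517 to 538) in WT, a ratio of 0.14 (0.09 to 0.18). Without Lpin1 the sum of the remaining 9 had a ratio of -0.08 (-0.15 to -0.01), so the direction of the sum rests on that gene. It rests on the scaling too, since with spike-in scaling the sum of all 10 had a ratio of -0.14 (-0.18 to -0.10).

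**Figure D2:**
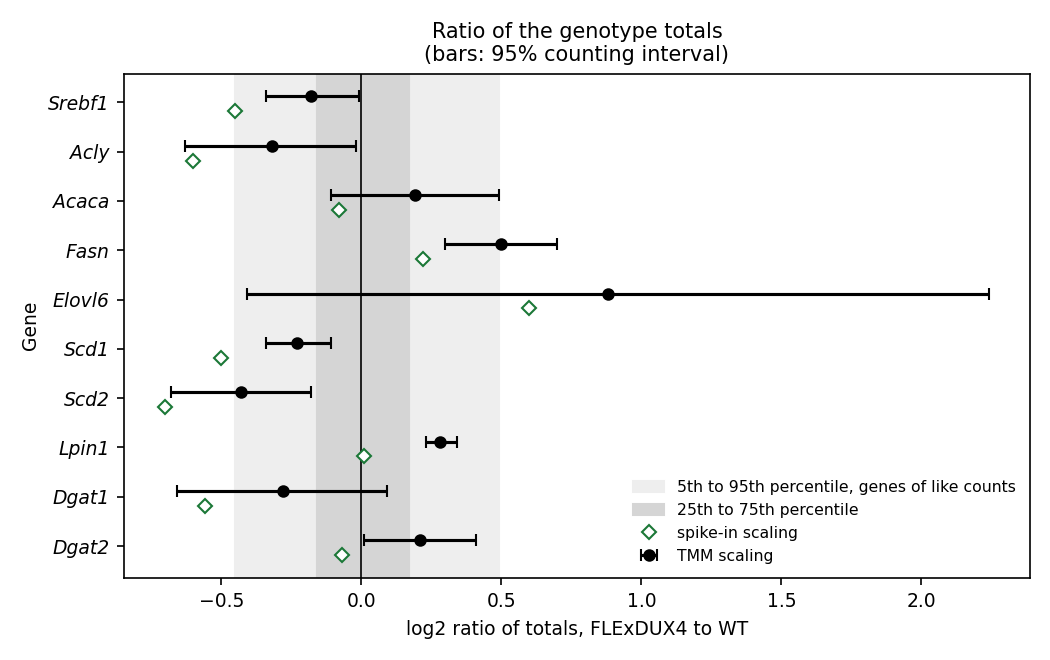
log2 ratio of the FLExDUX4 total to the WT total for each gene, with TMM scaling (black, bars for the 95% counting interval) and with spike-in scaling (green diamonds); grey bands hold the middle of the ratios of the 6321 genes in the same count range. Fasn at 0.50 and Scd2 at -0.43 lie near the edges of the outer band, and spike-in scaling places every gene lower by the same amount.

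The spike-in RNAs made up 1.65% of the counts in FLExDUX4 and 1.40% in WT. When the totals were scaled to them, every ratio was lower and the median over all genes compared moved by -0.276. Ratios below are given relative to the bulk of genes, as TMM sets it, and the spike-in value is given beside the results whose direction depends on this choice. Differences between genes of the same totals are free of any scaling.

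Srebf1 spans 60199089 to 60222581 of chromosome 11 (GRCm38, as all positions here). The FLExDUX4 total held 490 of its counts and the WT total 792, or 37.8 CPM (34.5 to 41.3) and 42.7 CPM (39.8 to 45.8). The log2 ratio was -0.18 (interval -0.34 to -0.01), so the regulator itself was slightly lower in the FLExDUX4 total. The isoforms of SREBP-1 differ at their 5′ ends, and these 3′ reads do not tell them apart. The last 500 bases of Srebf1 overlap Rai1 on the opposite strand, which had 212 and 350 counts, and the strand setting used in counting is not given in the sources used here. Srebf1 made up 89.3% (86.4 to 91.7) of the counts of Srebf1 and Srebf2, the regulator of cholesterol synthesis, in FLExDUX4 and 88.3% (86.0 to 90.3) in WT. The balance of the SREBP genes therefore differed by less than counting error.

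Acly (chromosome 11, 100476353 to 100528000), whose product supplies acetyl-CoA to the cytosol, had 138 counts in FLExDUX4 and 247 in WT. Its levels were 10.6 CPM (8.94 to 12.6) and 13.3 CPM (11.7 to 15.1), a log2 ratio of -0.32 (-0.63 to -0.02). Acss2, which makes acetyl-CoA from acetate, had a ratio of -0.20 (-0.45 to 0.05). Acly was 39.2% (34.1 to 44.5) of the counts of this pair in FLExDUX4 and 41.2% (37.3 to 45.3) in WT, with overlapping intervals.

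Acaca (chromosome 11, 84129672 to 84401651), the acetyl-CoA carboxylase of fatty acid synthesis, had 171 counts in FLExDUX4 and 214 in WT, or 13.2 and 11.5 CPM. The log2 ratio of 0.19 (-0.11 to 0.49), which became -0.08 with spike-in scaling, was within counting error. Acacb, the mitochondrial form whose malonyl-CoA restrains fatty acid oxidation, was far more abundant, at 123 CPM against 102 CPM, a log2 ratio of 0.26 that became -0.01 with spike-in scaling. Acacb is also among the genes that the study listed from these samples, so its direction is not independent evidence. Acaca was 9.68% (8.34 to 11.2) of the counts of both carboxylases in FLExDUX4 and 10.1% (8.87 to 11.5) in WT. Of the 50-base stretches in the last 500 bases of Acaca transcripts, 22.4% also occur in Gm5182, which had 0 counts in both totals. Acacb was the main carboxylase transcript in either genotype.

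Fasn (chromosome 11, 120805846 to 120824547), which encodes fatty acid synthase, had 399 counts in FLExDUX4 and 404 in WT, nearly equal numbers from totals of unequal depth. Its level was 30.8 CPM (27.8 to 33.9) in FLExDUX4 and 21.8 CPM (19.7 to 24.0) in WT. The log2 ratio of 0.498 (0.30 to 0.70) fell just short of 0.5, and was the highest among the 9 genes with over 200 counts in all. With spike-in scaling it was 0.22 (0.02 to 0.43), so Fasn stayed higher, the one well-counted gene of the 10 whose interval was above 0 on both scales. Fasn outranked 84.3% of the genes compared by its ratio. Relative to Srebf1 in the same totals it was higher by 0.67 (0.42 to 0.93).

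Elovl6 (chromosome 3, 129532355 to 129638495), the elongase that acts on palmitate, was close to the limit of detection. It had 13 counts in FLExDUX4 and 10 in WT, and the log2 ratio of 0.88 had an interval from -0.41 to 2.24. This depth does not show a difference in either direction. Of the 50-base stretches at the end of its transcripts, 8.73% occur in Gm11295, which had 0 counts in both totals.

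**Figure D3:**
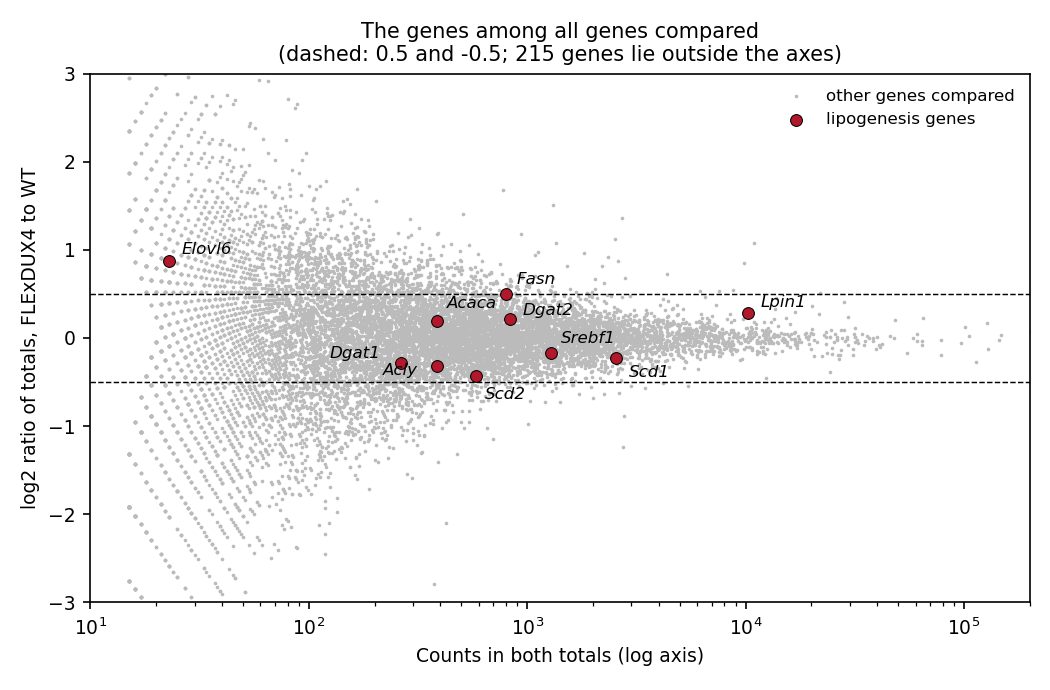
log2 ratio of the FLExDUX4 total to the WT total against the counts in both totals (log axis) for the genes compared (grey) and the 10 lipogenesis genes (red); 215 genes lie outside the axes and dashed lines mark 0.5 and -0.5. Elovl6 sits among genes with few counts, where ratios scatter widely, while Fasn and Scd2 lie near the border of the cloud at their counts and Lpin1 lies above most genes of its abundance.

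The stearoyl-CoA desaturases convert saturated into monounsaturated fatty acids, and both measured forms were lower in the FLExDUX4 total. Scd1 (chromosome 19, start 44394451 in the deposited table) had 953 counts in FLExDUX4 and 1595 in WT. Its level was 73.5 CPM (68.9 to 78.3) against 85.9 CPM (81.8 to 90.3), and the log2 ratio was -0.23 (-0.34 to -0.11). Scd2, on the same chromosome with its start at 44293676, had 200 and 385 counts. Its level of 15.4 CPM (13.4 to 17.7) in FLExDUX4 and 20.7 CPM (18.7 to 22.9) in WT gave a ratio of -0.43 (-0.68 to -0.18), the lowest of the 10. With spike-in scaling the ratios of Scd1 and Scd2 were -0.50 and -0.70, so the direction held. Scd1 was 82.7% (80.3 to 84.8) of their joint counts in FLExDUX4 and 80.6% (78.7 to 82.3) in WT. Their ratios differed by 0.20 (-0.07 to 0.47), which counting error could give. No 50-base stretch at the transcript ends of either gene occurs in another gene, and the further family members Scd3 and Scd4 had 1 and 0 counts in FLExDUX4 and 4 and 0 in WT.

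The desaturases parted from the synthase. Fasn and Scd2 had like levels in WT, 21.8 and 20.7 CPM, and in FLExDUX4 Fasn stood at 30.8 CPM and Scd2 at 15.4 CPM. The difference between their log2 ratios was 0.93 (0.61 to 1.24), or 1.90-fold, and that between Fasn and Scd1 was 0.72 (0.49 to 0.96). These differences were chosen after their values were seen.

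Lpin1 (chromosome 12, 16535669 to 16610966) encodes lipin 1, which turns phosphatidate into diacylglycerol and also acts as a transcriptional coactivator. It had 4699 counts in FLExDUX4 and 5520 in WT, or 362 CPM (352 to 373) and 297 CPM (290 to 305). The log2 ratio was 0.28 (0.23 to 0.34), the most precise of the 10, but 0.01 (-0.05 to 0.06) with spike-in scaling. Lpin1 is among the genes that the study listed from these same samples, so its direction is not independent evidence. It supplied 99.3% (99.0 to 99.5) of the counts of Lpin1 and Lpin2 in FLExDUX4 and 99.3% (99.1 to 99.5) in WT. Lpin2 had 34 and 37 counts, and Lpin3 25 and 37.

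The acyltransferases that complete triglyceride went in opposite directions in the totals. Dgat1 (chromosome 15, 76502015 to 76511953), which also re-esterifies fatty acids taken up from outside, had 96 counts in FLExDUX4 and 167 in WT. The intervals of its level, 5.99 to 9.04 CPM in FLExDUX4 and 7.69 to 10.5 CPM in WT, overlapped, and the log2 ratio was -0.28 (-0.66 to 0.09). Dgat2 (chromosome 7, 99153658 to 99182719), the form tied more closely to newly made fatty acids, had 372 and 460 counts. Its levels were 28.7 CPM (25.8 to 31.7) and 24.8 CPM (22.6 to 27.2), a ratio of 0.21 (0.01 to 0.41), which became -0.07 with spike-in scaling. Within the pair, Dgat1 was 20.5% (16.9 to 24.5) of the counts in FLExDUX4 and 26.6% (23.2 to 30.3) in WT. The log2 ratio of Dgat1 was below that of Dgat2 by -0.49 (-0.90 to -0.08), a difference in balance that no scaling can alter, although the intervals of the shares overlap.

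**Figure D4:**
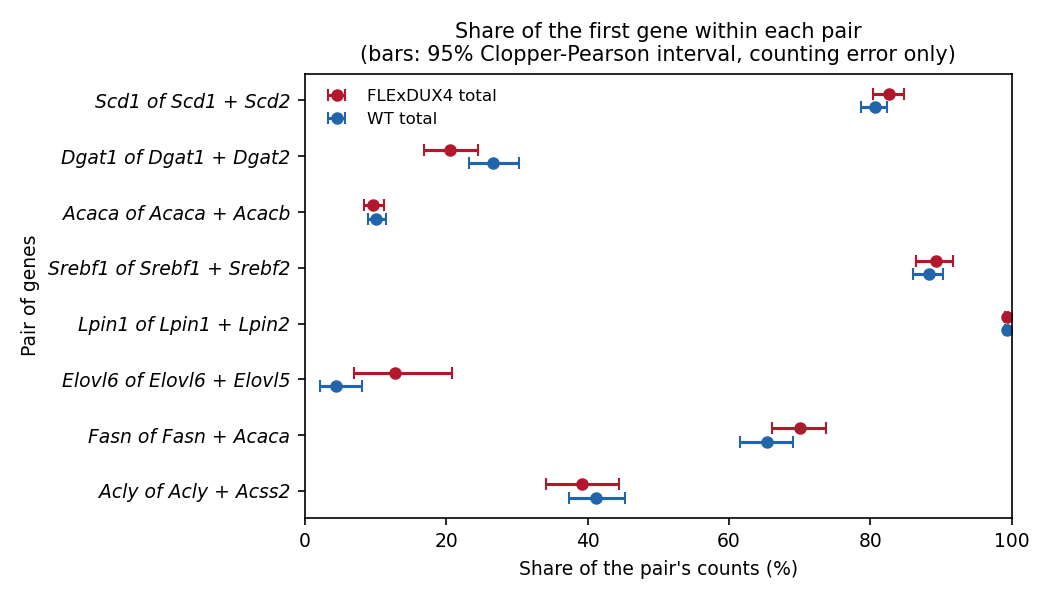
Share of the first gene in the counts of each of 8 pairs, in percent, in the FLExDUX4 total (red) and the WT total (blue), with bars for the 95% Clopper-Pearson interval of counting error. The shares of Srebf1, Lpin1, Acaca and Acly nearly coincide between genotypes, whereas Dgat1 is at 26.6% in WT and 20.5% in FLExDUX4. Elovl6, with 13 counts in FLExDUX4 and 10 in WT, lies higher in FLExDUX4 than in WT. The intervals of both these shares overlap between genotypes.

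The pathway was described by lists of 8 steps, from regulators to cholesterol synthesis, which between them also hold the 10 genes. Outside the 10 genes, 69 of their 79 listed genes were compared. Of these 69, 32 were higher in the FLExDUX4 total and 37 lower, with a median log2 ratio of -0.04, and with spike-in scaling 20 were higher and 49 lower. Their intervals lay above 0 for 14 genes (20.3%) and below 0 for 15 (21.7%), near the 20.5% and 20.6% of all genes compared.

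Of the 16 regulators, Srebf1 among them, 12 were lower in the FLExDUX4 total, and 49.9% of all genes compared were higher. The median was -0.19, or -0.47 with spike-in scaling, and -0.21 without Srebf1. An interval lay below 0 for 5 of the 16 and above 0 for 2, Mid1ip1 and Mlx, against 20.6% and 20.5% of all genes. Mlx, the partner of ChREBP on DNA, had a log2 ratio of 0.42 (0.13 to 0.70). Scap, which escorts SREBPs out of the endoplasmic reticulum, had a log2 ratio of -0.40 (-0.75 to -0.07). Insig2, which retains them there, had -0.22 (-0.41 to -0.03). Pnpla3, a lipase gene that SREBP-1 induces, had the lowest ratio of the list, -1.30 (-2.35 to -0.43), from 13 and 47 counts. Mid1ip1, which promotes the polymerization of acetyl-CoA carboxylase, had the highest, 0.47 (0.26 to 0.68). Its partner Thrsp had -0.18 (-0.43 to 0.05), and Mlxipl, the carbohydrate-responsive factor ChREBP, had -0.12 (-0.32 to 0.09).

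Among 8 genes that supply acetyl-CoA and NADPH, Acly included, 3 were higher and 5 lower. Slc25a1, the mitochondrial citrate carrier, had 42 counts in FLExDUX4 and 21 in WT, or 3.24 and 1.13 CPM, the highest log2 ratio of the list with an interval of 0.73 to 2.35. Pcx, pyruvate carboxylase, had 0.79 (0.53 to 1.06) from 262 and 216 counts. Me1, malic enzyme, was the most abundant at 93.8 and 94.3 CPM, with a ratio of -0.01 (-0.11 to 0.10). G6pdx was the lowest, -0.84 (-2.03 to 0.16), from 11 and 29 counts.

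The list of malonyl-CoA and fatty acid synthesis held Acaca and Fasn, and its median of 0.26 became -0.01 with spike-in scaling. Of its 5 genes 4 were higher, or 2 with spike-in scaling. Without Acaca and Fasn, 2 of 3 genes were higher. Mcat and Oxsm, of the separate fatty acid synthesis of mitochondria, lay at its ends. Mcat had 196 counts in FLExDUX4 and 134 in WT, a log2 ratio of 1.06 (0.74 to 1.39), and Oxsm had 28 and 100, a ratio of -1.30 (-1.98 to -0.70). Among elongation genes, Elovl6 included, 8 of 11 were compared, 4 higher and 4 lower. Their intervals lay above 0 for 0 genes and below 0 for 3, against 20.5% and 20.6% of all genes compared. With spike-in scaling 1 gene was higher, and the median of -0.01 became -0.28. Elovl5, which lengthens polyunsaturated fatty acids, was lowest at -0.75 (-1.13 to -0.39). Elovl6 was the highest of that list. Elovl6 was 12.7% (6.96 to 20.8) of the counts of Elovl6 and Elovl5 in FLExDUX4 and 4.44% (2.15 to 8.02) in WT. These intervals overlap, and Elovl6 had 13 and 10 counts against 89 and 215 for Elovl5. Among desaturation genes, 5 of 8 were compared, with a median of -0.23. Outside Scd1 and Scd2, 2 of the 3 compared were higher. Their median was 0.10, the ratio of Fads1, which was -0.18 with spike-in scaling. Of the whole list Fads3 was the highest, 1.54 (0.63 to 2.56), from 31 and 15 counts, and Scd2 was the lowest. Elovl3, Scd4 and Fads2 had 0 counts in both totals. The floor of 3 counts stands at 0.231 CPM in FLExDUX4 and 0.162 CPM in WT.

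Acyl-CoA synthetases activate fatty acids, and 4 of 5 were lower, within a narrow range from -0.44 for Acsl6 to 0.02 for Acsl3, which became -0.26 with spike-in scaling. The muscle form Acsl1 had 233 and 234 CPM. In triglyceride assembly 8 of 13 genes compared, which include Lpin1, Dgat1 and Dgat2, were higher, or 6 with spike-in scaling. The median was 0.21, or -0.07 with spike-in scaling. Gpam, the mitochondrial enzyme that begins glycerolipid synthesis and a known SREBP-1 target, had 73 counts in FLExDUX4 and 24 in WT. Its log2 ratio of 2.10 (1.44 to 2.85) was the highest among the genes of the 8 lists that had enough counts to be compared, and it was 1.83 with spike-in scaling. The lowest gene of that list was Dgat1.

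Cholesterol synthesis, which SREBP-2 drives, had 19 of 20 genes compared, 11 higher and 8 lower, or 7 higher with spike-in scaling. The median was 0.10, or -0.17 with spike-in scaling. Hmgcs1, which makes the HMG-CoA that enters the pathway, had a log2 ratio of -0.32 (-0.52 to -0.13). The counts behind many of these genes were small, and the list had no common direction.

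**Figure D5:**
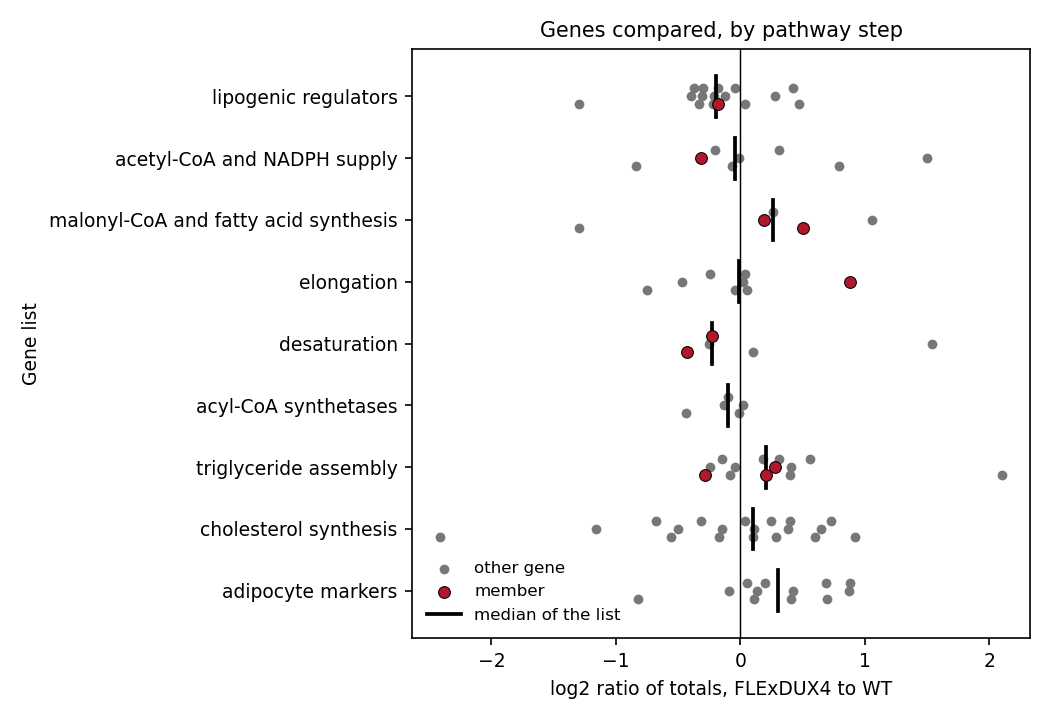
log2 ratio of the FLExDUX4 total to the WT total for each gene compared, by list: grey points are other genes, red points the 10 lipogenesis genes, and black bars the median of the list. The medians of the 8 pathway lists, with the 10 genes included, lie between -0.23 for desaturation and 0.26 for malonyl-CoA and fatty acid synthesis. That of desaturation is -0.07 without the filter on low counts and 0.10 without Scd1 and Scd2. The median of the adipocyte markers lies at 0.30.

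Adipocytes express Fasn, Scd1, Dgat2 and Srebf1 strongly, and their markers were therefore measured beside these genes. Of 12 adipocyte markers, 10 were higher in the FLExDUX4 total, or 6 with spike-in scaling, and none had 0 counts. Their median log2 ratio was 0.30, or 0.03 with spike-in scaling. Adipoq, a marker of this list at 22.7 and 13.9 CPM, is among the genes the study listed from these samples and is not independent evidence. Their summed level was 2615 CPM in FLExDUX4 and 2436 CPM in WT, a log2 ratio of 0.10 that became -0.17 with spike-in scaling. Car3 and Slc2a4, which muscle fibers also express, made up most of it. Without these genes the sum of the remaining 10 was 431 and 337 CPM, a ratio of 0.35 (0.30 to 0.40), which was 0.08 with spike-in scaling. Cfd had the highest ratio, 0.88 (0.76 to 0.99), and Lep the lowest, -0.82 (-1.95 to 0.15). Of the genes named first, Fasn and Dgat2 lay higher in the FLExDUX4 total, and Scd1 and Srebf1 lay lower. With spike-in scaling Dgat2 was lower too, at -0.07. The part of adipocyte RNA in these results was not tested.

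Scd2 is abundant in myelin-forming cells. Of 7 Schwann cell markers, 4 were higher and 3 lower, or 2 higher with spike-in scaling. Their summed level was 154 CPM in FLExDUX4 and 145 CPM in WT, a log2 ratio of 0.08 (-0.01 to 0.16), which became -0.20 (-0.28 to -0.11) with spike-in scaling. Prx had the highest ratio, 0.52 (-0.06 to 1.09), and Sox10 the lowest, -0.96 (-2.29 to 0.12). Their median of 0.14 became -0.14 with spike-in scaling. On the same scales the ratio of Scd2 was -0.43 and -0.70. The other marker lists had ratios of their summed levels of -0.06 (-0.12 to 0.00) for 5 endothelial genes, 0.14 (0.11 to 0.17) for 4 fibroblast genes (-0.14 with spike-in scaling) and -0.03 (-0.24 to 0.18) for 5 immune genes, of which Cd3e was at the floor. Of the 5 endothelial genes 2 were higher and 3 lower, or 0 higher with spike-in scaling. Tek at -0.63 (-1.04 to -0.25) and Kdr at -0.56 (-0.70 to -0.42) were lowest. Flt1 was highest at 0.20 (0.09 to 0.30), which became -0.08 with spike-in scaling. Col1a1 stood apart among the fibroblast genes at 0.53, the other 3 lay between 0.01 and 0.05, and the median was 0.04, or -0.23 with spike-in scaling. The 4 immune genes compared had a median of -0.31, with Cd68 at -0.64 (-1.44 to 0.07) and Adgre1 at -0.66 (-1.44 to 0.04), and Ptprc was highest at 0.43. Their part in the results was not tested.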

How the data were processed

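Muscle RNA of 3 FLExDUX4 and 3 WT mice was sequenced with QuantSeq 3′ mRNA libraries on an Illumina NextSeq 500. According to the paper's methods and the submitters' processing notes, reads were trimmed with cutadapt 1.16, checked with FastQC 0.11.7, aligned with STAR 2.5.3a to GRCm38 with ERCC and SIRV spike-ins, and counted with featureCounts 1.6.2. The deposited counts used here are the authors' sums per gene over each genotype, not normalized. The 6 columns of values per sample carry names that match no sample label and were not used. The authors' own comparison (mean, fold change, standard error, statistic and p-values) was not used either.

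Totals of mouse genes passed edgeR's filterByExpr and took TMM factors (edgeR 4.0.16 under R 4.3.3), and 0.5 was added before each ratio. Intervals were computed with scipy 1.17.1 (Python 3.11.15). Those for differences between 2 genes are normal approximations. An edgeR test had been planned for values of single mice. With 1 total per genotype no test was run. Scripts were tested on simulated data. Alternatives were RLE (DESeq2 1.42.0), upper quartile, gene totals, spike-in totals, a pseudocount of 1, other count filters and other fold sizes. The members and gene lists were chosen with earlier results of these data known. Genes named are the 10 members, those paired with them, each list's highest and lowest ratio and markers at the floor, and others of the lists were named after their values were seen. Some genes of the lists are not reported here. The background of genes in the members' count range, the sum without Lpin1, the adipocyte sum without Car3 and Slc2a4 and the sums with spike-in scaling were also added then. Positions are from GENCODE M21 where the start equals the deposited one, otherwise the deposited start is given.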

Additional observations from a re-analysis of the deposited data

How the results depend on the processing

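No paired analysis was possible because the columns of values per sample match no sample label, so no mice could be paired and each genotype entered as 1 sum. Neither a replicate block nor leaving out each mouse in turn was therefore run. With 1 total per genotype, depth limits what can be seen: Elovl6 (13 and 10 counts), Dgat1 (96 and 167) and Acaca (171 and 214) had intervals that hold 0. Every ratio of the 10 genes stayed within its counting interval under RLE, upper quartile, gene totals, a pseudocount of 1, no filter and at least 10 counts in each total. Spike-in scaling moved 6 of them outside it, to -0.45 for Srebf1, 0.22 for Fasn, -0.50 for Scd1, -0.70 for Scd2, 0.01 for Lpin1 and -0.07 for Dgat2, which changed direction. Scaling shifts every gene alike, and what set the spike-in share apart between the totals was not tested. The number of the 10 genes lower by at least 0.5 was 0 and became 4 with spike-in scaling. With a size of 0.25 in place of 0.5, 3 genes were higher and 3 lower, and with a size of 1, 0 genes were higher and 0 lower. Of the list medians, spike-in scaling turned those of malonyl-CoA and fatty acid synthesis (-0.01), triglyceride assembly (-0.07), cholesterol synthesis (-0.17), Schwann cell markers (-0.14) and fibroblast markers (-0.23), and the ratio of Acaca also turned (-0.08). Without the filter on low counts the median of desaturation was -0.07 in place of -0.23, that of the immune markers 0.00 in place of -0.31 and that of elongation 0.01 in place of -0.01. The 16 shares within pairs stayed within their intervals with 0.5 added to each count.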
